A study of Mus musculus with 4 samples.

Results

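Transcripts of antibody constant regions were present at high signal on arrays of sorted mouse blood stem cells, and the isotypes differed in how they varied between arrays. Each array stood for 1 dose that the transplanted cells had received. The 8 genes described here are those of the μ, γ3, γ1, γ2b, γ2c and α heavy chain constant regions (Ighm, Ighg3, Ighg1, Ighg2b, Ighg2c and Igha), the kappa light chain constant region (Igkc) and the joining chain (Jchain). They were taken by symbol from the 23185 probe sets with a gene symbol, out of 25206 in all, and all 8 were found. The genes were selected on their log2 values over the 4 doses, which were known when the set was proposed, so every value below is a description and carries no test.

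Lineage-negative, c-Kit-positive, Sca-positive mouse marrow cells received γ-irradiation at 0, 0.02, 0.1 or 0.5 Gy and were transplanted into mice that had themselves been lethally irradiated. Long-term haematopoietic stem cells were then sorted from the recipients' marrow 6 months after transplantation, as cells also negative for Flk2 and CD48 and positive for CD150. The groups were therefore 0 Gy, 0.02 Gy, 0.1 Gy and 0.5 Gy, each with 1 array, and all shared the transplantation and the lethally irradiated hosts. Strain, sex, age and the number of mice per array are not stated in the labels, and the gate names no donor marker, so the sorted cells need not all descend from the transplanted cells.

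An antibody is built from heavy and light chains, each with a variable region that binds antigen and a constant region that sets its class. B cells first join the variable region to the μ constant region, and class switching later moves it next to a γ, ε or α gene further along the locus. Plasma cells, the antibody-secreting end stage of the B lineage, live in bone marrow and transcribe these genes at very high rates. The J chain links IgM and IgA units into polymers. Blood stem cells have not rearranged these genes and do not make antibody.

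The heavy chain genes lie side by side on chromosome 12, and in assembly GRCm38.p6 their order from the μ end is Ighm, Ighd, Ighg3, Ighg1, Ighg2b, Ighg2c, Ighe and Igha. Igkc lies on chromosome 6 and Jchain on chromosome 5. Of the 8 genes, Jchain alone matched an entry in RefSeq's promoter sequences. Its promoter is shown because Jchain, unlike the constant regions, is not joined to a rearranged variable region and is transcribed from a promoter of its own. The 250 bases before its start, at chr5:88527898-88528147 on the minus strand of GRCm38.p6, are printed 5′ to 3′ with matches to the E-box CANNTG and to the core ACGT in capitals.
Jchain: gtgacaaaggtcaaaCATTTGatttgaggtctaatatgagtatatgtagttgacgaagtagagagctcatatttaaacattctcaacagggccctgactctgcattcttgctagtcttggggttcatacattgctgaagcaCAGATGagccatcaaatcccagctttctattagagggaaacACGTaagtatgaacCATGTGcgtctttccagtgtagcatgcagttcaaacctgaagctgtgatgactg
Both strands were searched, and no match overlapped another. E-boxes are the sites of basic helix-loop-helix factors such as E2A, and ACGT is the core of sites bound by Xbp1 and related factors. There were 3 E-box matches, against a median of 1 per promoter, and 66.2% of 32851 promoter windows of the same length held at least 1. The single ACGT match is shared with 26.9% of windows. The octamer ATGCAAAT, the site of Oct factors that act with Pou2af1, was not found in these letters, and 1.60% of windows held it.

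The deposited values are log2 intensities. The median over all probe sets lay between 4.01 and 4.07 on the 4 arrays, and the highest value on any array was 13.0. Probe sets of 1082 olfactory receptor genes, which blood cells are not known to use, had medians of 2.23 to 2.32 and 95th percentiles of 3.75 to 3.86. Probe sets differ in their response, so these serve as a guide to low signal and not as a limit of detection. A value under 4.06, the median of all gene means, is called low here. Of the 8 genes, 7 had a mean above that level and Ighg3 did not.

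Among the sort markers, Kit lay between 10.12 and 10.57 on the log2 scale over the 4 arrays, and Slamf1, the CD150 gene, between 7.16 and 8.65. Of the genes whose products the gate excludes, Cd48 lay between 3.08 and 4.13, and Flt3, the Flk2 gene, had 4.46, 4.76, 5.44 and 4.76 at 0, 0.02, 0.1 and 0.5 Gy, above the low level on every array. Cd34, a progenitor marker, had 8.68, 7.79, 9.77 and 9.70. The summed linear intensity of these 3 genes was 449, 258, 935 and 879, and their part in the antibody values was not tested. Of 14 measured long-term stem cell markers, 0 were low on any array. These values do not show what share of the sorted cells were long-term stem cells. Whether the stem cells themselves held the antibody transcripts was not tested.

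The γ1, γ2b and γ2c genes, whose products are the main IgG subclasses of the circulation, varied most. Ighg1 had log2 values of 11.04 and 12.55 on the 0 Gy and 0.02 Gy arrays, and of 3.06 and 4.12 on the 0.1 Gy and 0.5 Gy arrays. Ighg2b had 11.07, 12.12, 3.73 and 4.20, and Ighg2c had 11.36, 12.33, 4.21 and 3.75 in the same order of dose. The arrays at 0 and 0.02 Gy were thus high and those at 0.1 and 0.5 Gy were at or near the low level, with no value in between.

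Against 0 Gy, Ighg1 differed by -7.97 log2 units at 0.1 Gy and by -6.92 at 0.5 Gy. Ighg2b differed by -7.34 and -6.87, and Ighg2c by -7.15 and -7.61, at these doses. Where a value is low, the size of such a difference is uncertain. With low values raised to 4.06, Ighg1 was 126-fold, Ighg2b 129-fold and Ighg2c 142-fold lower at 0.1 Gy, and they were 121-fold, 117-fold and 158-fold lower at 0.5 Gy.

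At 0.02 Gy the same γ genes lay above 0 Gy, by 1.51 for Ighg1, 1.05 for Ighg2b and 0.97 for Ighg2c. Profiles of 2 genes were compared by centring each on its own mean and taking the root mean square difference over the 4 arrays. This was 0.39 between Ighg1 and Ighg2b, 0.35 between Ighg2b and Ighg2c and 0.59 between Ighg1 and Ighg2c. The γ genes are close in sequence, and how far their probe sets cross-react was not tested, so the 3 profiles need not be independent.

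Ighg3, which lies between Ighm and Ighg1 and encodes the IgG3 heavy chain, showed none of this. It had 2.95, 2.88, 2.88 and 2.86 at 0, 0.02, 0.1 and 0.5 Gy, low on every array, and its values at 0.02 and 0.1 Gy were identical. The ε gene Ighe, which encodes the IgE heavy chain and is not one of the 8, was low on every array as well, with 2.89 at 0 Gy and differences from it of 0.11, 0.00 and -0.07 at 0.02, 0.1 and 0.5 Gy. Neither gene can show a decrease from such a level.

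**Figure D1:**
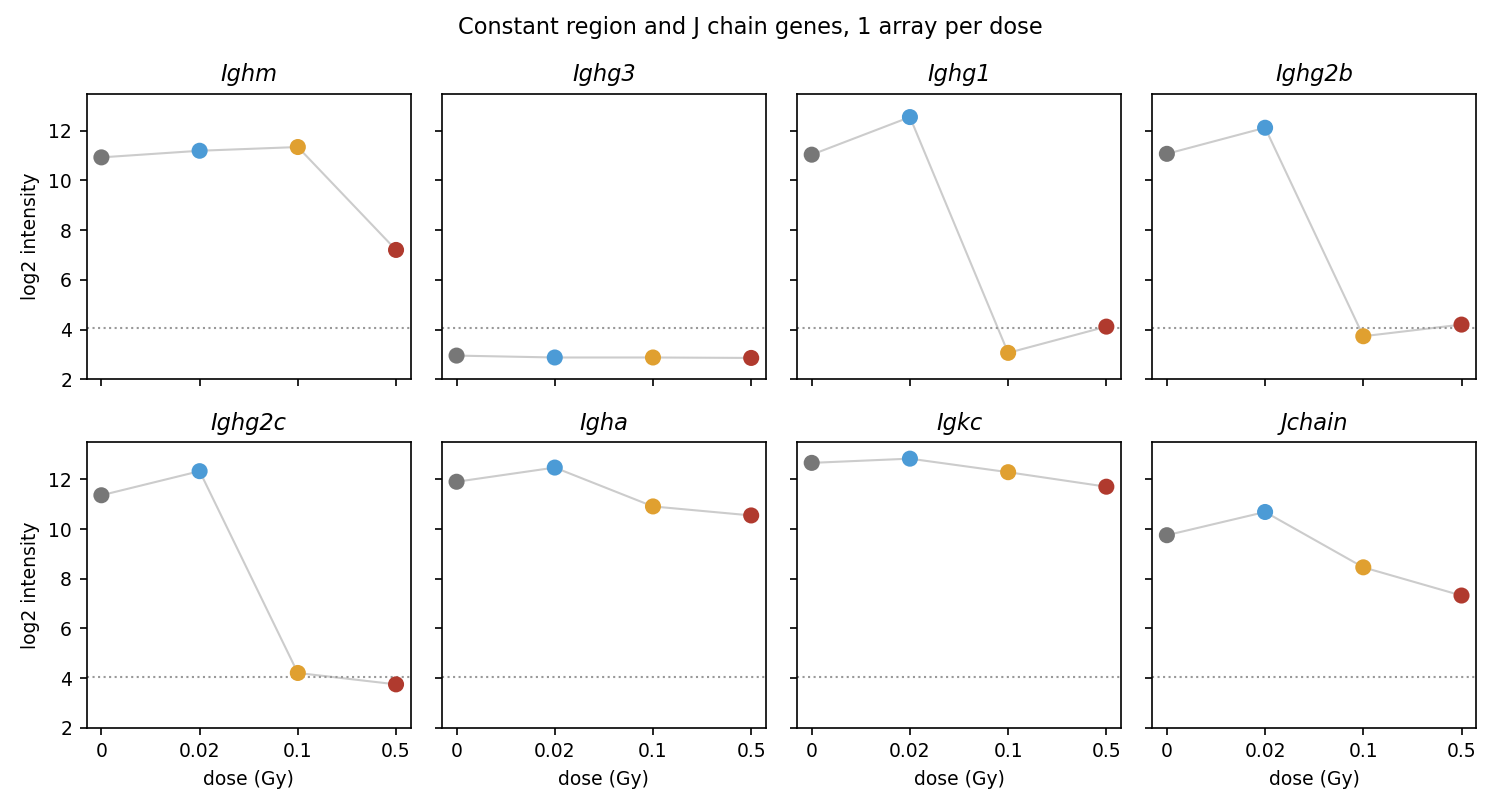
Log2 intensity (vertical axis) of each of the 8 genes at each dose in Gy (horizontal axis, doses equally spaced), with 1 point per array and grey lines that only join the points. The dotted line is the low level of 4.06. Ighg1, Ighg2b and Ighg2c are above 11 at 0 and 0.02 Gy and at 4.21 or less at 0.1 and 0.5 Gy, Ighm drops at 0.5 Gy alone, and Ighg3 is low throughout.

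Ighm, the μ gene of IgM, had a different profile from the γ genes. Its values over the same doses were 10.93, 11.20, 11.35 and 7.21. The first 3 doses lay within 0.42 log2 units of each other, and the 0.5 Gy array stood apart. It was 13.2-fold lower at 0.5 Gy than at 0 Gy, a difference of -3.72, and 17.6-fold lower at 0.5 Gy than at 0.1 Gy. At 0.1 Gy, where Ighg1, Ighg2b and Ighg2c averaged -7.49 against 0 Gy, Ighm was at 0.42, so the γ genes differed from it by -7.90. This gap was -3.41 at 0.5 Gy and 0.91 at 0.02 Gy.

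Igha, the α gene of the IgA heavy chain, stayed high on every array, at 11.90, 12.47, 10.91 and 10.55 for 0, 0.02, 0.1 and 0.5 Gy. It differed from 0 Gy by 0.57 at 0.02 Gy and by -0.99 at 0.1 Gy, and it was 2.56-fold lower at 0.5 Gy. Its whole range of 1.93 log2 units compares with 9.49 for Ighg1 and 4.14 for Ighm. At 0.5 Gy the difference of Ighm from 0 Gy was below that of Igha, by -2.37 log2 units.

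Igkc, which supplies the constant region of all kappa light chains whatever the heavy chain class, had 12.66, 12.83, 12.29 and 11.70. Its range was 1.13, the narrowest of the 7 genes that were not low throughout. At 0.5 Gy it was 1.94-fold lower than at 0 Gy. These values lie within 1.31 units of the highest value on the arrays, and whether signal is compressed there was not tested.

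Jchain had 9.75, 10.69, 8.46 and 7.32 in the order of dose. It differed from 0 Gy by 0.93, -1.29 and -2.43, the last being 5.38-fold lower. It ran in the same order of arrays as Igha and Igkc, with 0.02 Gy highest, then 0 Gy, 0.1 Gy and 0.5 Gy. Its profile differed from that of Igha by a root mean square of 0.53 and from that of Igkc by 0.86, and Igha and Igkc differed by 0.39. Without replicate arrays, no neighbours in such an order can be said to differ beyond their spread.

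**Figure D2:**
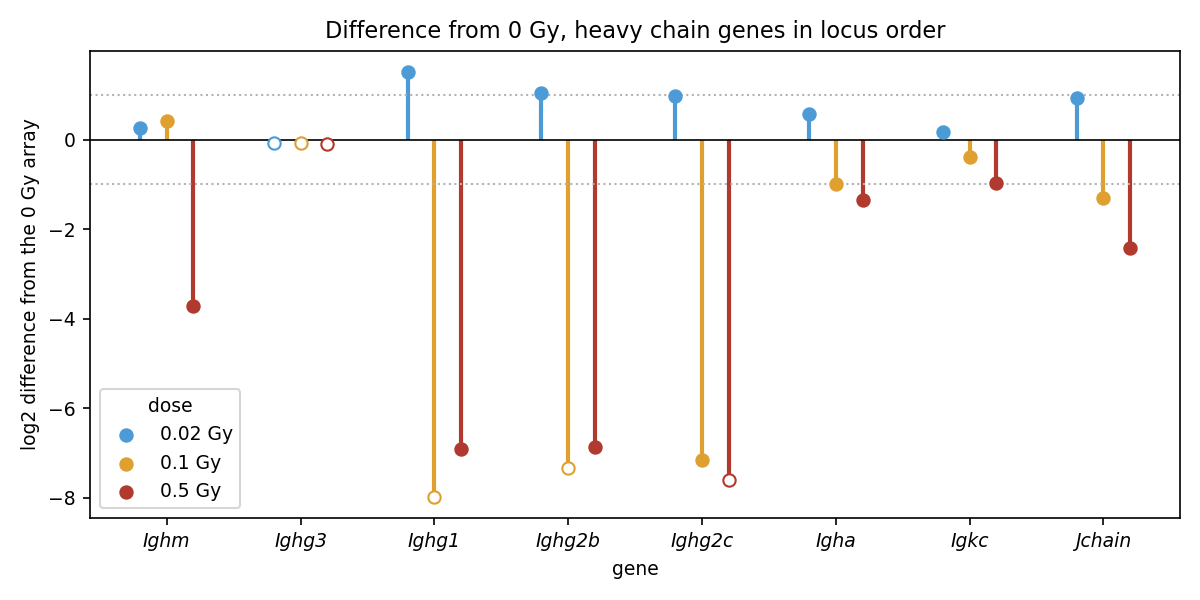
Log2 difference of each dose from the 0 Gy array (vertical axis) for the 8 genes (horizontal axis), with the heavy chain genes in the order of the locus. Bars start at 0, dotted lines mark 2-fold, and open circles mark differences in which a value was low. At 0.1 Gy the γ1, γ2b and γ2c genes lie near -7 to -8 while Ighm lies at 0.42, and at 0.5 Gy Ighm is at -3.72.

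Counted over all 8 genes at 2-fold or more, Ighg1 and Ighg2b, 2 in all, were higher at 0.02 Gy than at 0 Gy and 0 genes were lower. In that comparison 2.48% of all 11593 genes with a mean of at least 4.06 were higher and 1.55% lower. The 0.1 Gy array had 4 of the 8 lower and 0 higher, where 2.68% of all genes were lower and 1.59% higher. The 0.5 Gy array had 6 lower and 0 higher, where 3.01% and 1.63% of all genes were so. These shares are given as background only, since the choice of the genes used these comparisons.

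Over the 8 genes the median difference from 0 Gy was 0.75, -1.14 and -3.08 for the 0.02, 0.1 and 0.5 Gy arrays, where the median of all genes was 0 on each. The 3 comparisons share the 0 Gy array. Ighm was the gene above its 0 Gy value at 0.1 Gy, and at 0.5 Gy all 8 were below it, Ighg3 at -0.09. In sorted bulk cells, fewer cells of a type and less RNA per cell cannot be told apart.

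Between irradiated arrays, 0.1 Gy against 0.02 Gy gave 5 lower and 0 higher genes of the 8, beside 3.23% and 1.52% of all genes. Ighm and Igkc were within 2-fold there, as was Ighg3, while Igha differed by -1.56 and Jchain by -2.23. At 0.5 Gy against 0.1 Gy, 2 were lower, Ighm at -4.14 and Jchain at -1.13, and 1 was higher, beside 1.93% and 1.58% of all genes. The higher gene was Ighg1, with 4.12 at 0.5 Gy and 3.06 at 0.1 Gy. With low values raised to 4.06 that difference was 0.06. Among neighbouring doses, Ighg1, Ighg2b and Ighg2c differed most between the 0.02 and 0.1 Gy arrays, and Ighm between the 0.1 and 0.5 Gy arrays. With 1 array per dose, an effect of dose and any other difference between the sorted samples cannot be told apart.

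**Figure D3:**
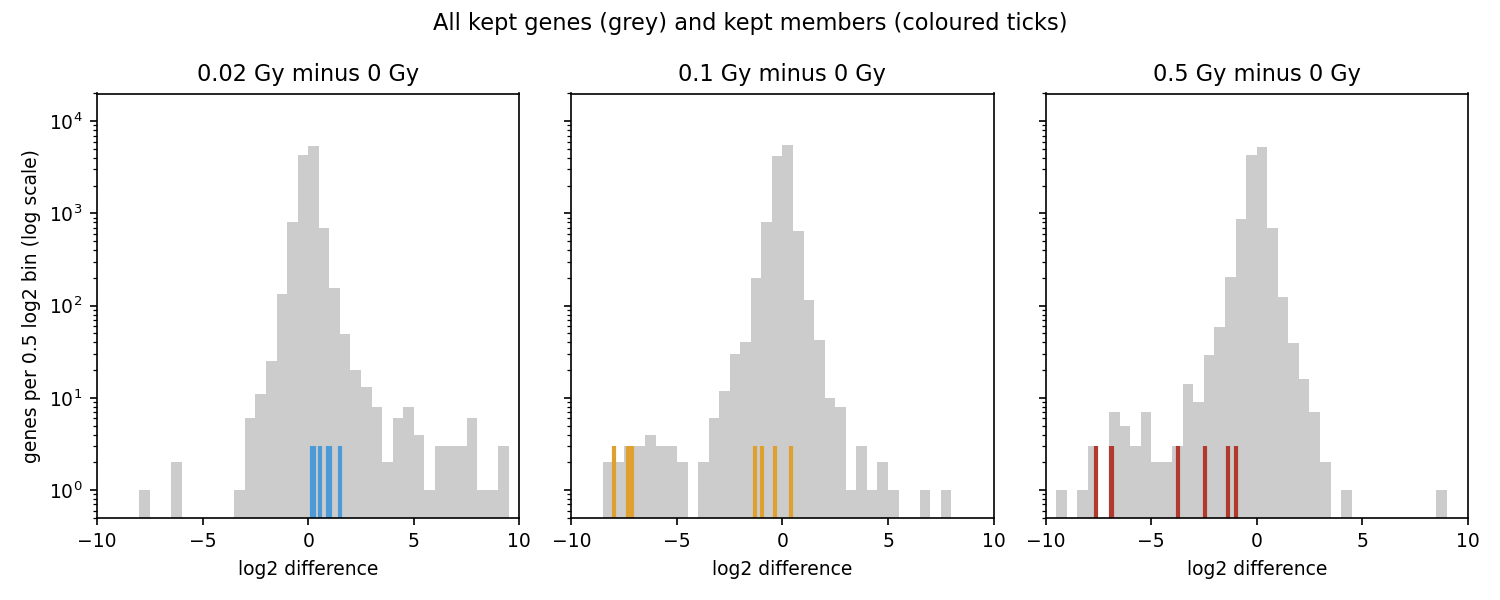
Number of genes (vertical axis, log scale) per 0.5-unit bin of log2 difference from 0 Gy (horizontal axis) for all 11593 genes with a mean at or above 4.06, in grey, at each dose. Coloured ticks mark 7 of the 8 genes described, Ighg3 being left out by its low mean. The γ genes lie in the far lower tail at 0.1 and 0.5 Gy, and Igkc lies near the main peak at 0.02 and 0.1 Gy.

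The J segments, short joining pieces between variable and constant regions, were looked at after their values were seen. Of the 6 measured, Igkj1 had 12.51, 12.95, 12.22 and 7.32 at 0, 0.02, 0.1 and 0.5 Gy, Igkj5 had 11.01, 12.81, 11.47 and 7.54, and Ighj1 had 12.27, 12.75, 12.10 and 7.14. Ighj4 had 11.23, 12.39, 10.76 and 4.68, and Ighj3 had 9.42, 12.04, 10.35 and 8.42, whereas Igkj3 reached 4.65 at 0 Gy and was low on the irradiated arrays. All 6 were lowest at 0.5 Gy, where Igkj1 differed from 0 Gy by -5.19 and Ighj4 by -6.55, while Igkc differed by -0.96.

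The number of variable segments with high signal differed between the same arrays. Of 185 variable segments, 27, 86, 11 and 2 had log2 values of 8 or more in the order of dose. The 2 at 0.5 Gy were both kappa segments, Igkv10-96 at 9.26 and Igkv1-110 at 11.36, and 0 of 88 heavy chain segments reached that value there. Igkv10-96 also reached it on the other arrays, at 11.57, 11.92 and 11.46 for 0, 0.02 and 0.1 Gy. Igkv1-110 was high at 0.02 Gy, with 11.88, and had 2.64 at 0 Gy and 1.96 at 0.1 Gy. At 0.5 Gy, high Igha and Igkc signal was thus accompanied by few measured variable segments, both of them light chain.

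The list of plasma cell identity genes was set beside these values, since plasma cells are the main makers of antibody transcripts. Of 15 listed, 14 were measured, and their summed linear intensity in the order of dose was 884, 1432, 727 and 704. Most of that sum on each array came from Xbp1, Ell2 and Fkbp11, which were within 2-fold of 0 Gy at every dose. The 0.02 Gy array had 6 of them at least 2-fold above 0 Gy and 0 below. Among the 6, Irf4, Slamf7 and Tnfrsf17 were low at 0 Gy, with 3.40, 3.85 and 3.47, so the size of their differences is uncertain. The 0.1 Gy array had 1 above (Cd28) and 1 below (Pou2af1), and the 0.5 Gy array had 0 above and 2 below (Pou2af1 and Mzb1). Of all 11593 genes, 2.48%, 1.59% and 1.63% were above and 1.55%, 2.68% and 3.01% below at 0.02, 0.1 and 0.5 Gy. The list's medians were 0.98, -0.30 and -0.10 at 0.02, 0.1 and 0.5 Gy.

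Mzb1, an endoplasmic reticulum factor for antibody assembly in B and plasma cells, had 6.23, 7.60, 5.24 and 3.78 at 0, 0.02, 0.1 and 0.5 Gy. Pou2af1, the coactivator of Oct factors on antibody genes, had 5.98, 7.03, 4.12 and 3.58. Both were highest at 0.02 Gy and lowest at 0.5 Gy, as were Jchain, Igha and Igkc. The transcription factor Irf4 had 3.40, 5.02, 3.53 and 3.41, the adhesion receptor Slamf7 had 3.85, 5.48, 3.57 and 3.58, and Tnfrsf17, the plasma cell survival receptor BCMA, had 3.47, 4.75, 3.38 and 3.36. These 3 were low except at 0.02 Gy.

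Other genes of the list were at or above the low level on every array, apart from Eaf2. Prdm1, which encodes Blimp-1, had 4.46, 5.45, 4.06 and 4.46, and Sdc1, which encodes the surface marker CD138, had 4.72, 4.91, 4.35 and 4.28. Xbp1, the secretory pathway factor, had 8.49, 9.06, 8.14 and 8.40, and it is also used by many other cells. Cd28, a co-stimulatory receptor of T cells and plasma cells, had 4.42, 5.94, 5.70 and 4.35. Tnfrsf13b, a receptor for B cell survival ligands, had 4.57, 5.54, 4.21 and 4.58, and Derl3, of endoplasmic reticulum protein degradation, had 4.55, 5.38, 4.43 and 4.55. Ell2, an elongation factor of antibody transcription, lay between 6.68 and 7.01, and Fkbp11 between 6.38 and 6.90. Prdm1, Sdc1, Xbp1, Tnfrsf13b, Derl3, Ell2 and Fkbp11 were within 2-fold of 0 Gy at every dose, as was Cd28 at 0.5 Gy. The part of plasma cell RNA in the antibody values was not tested.

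**Figure D4:**
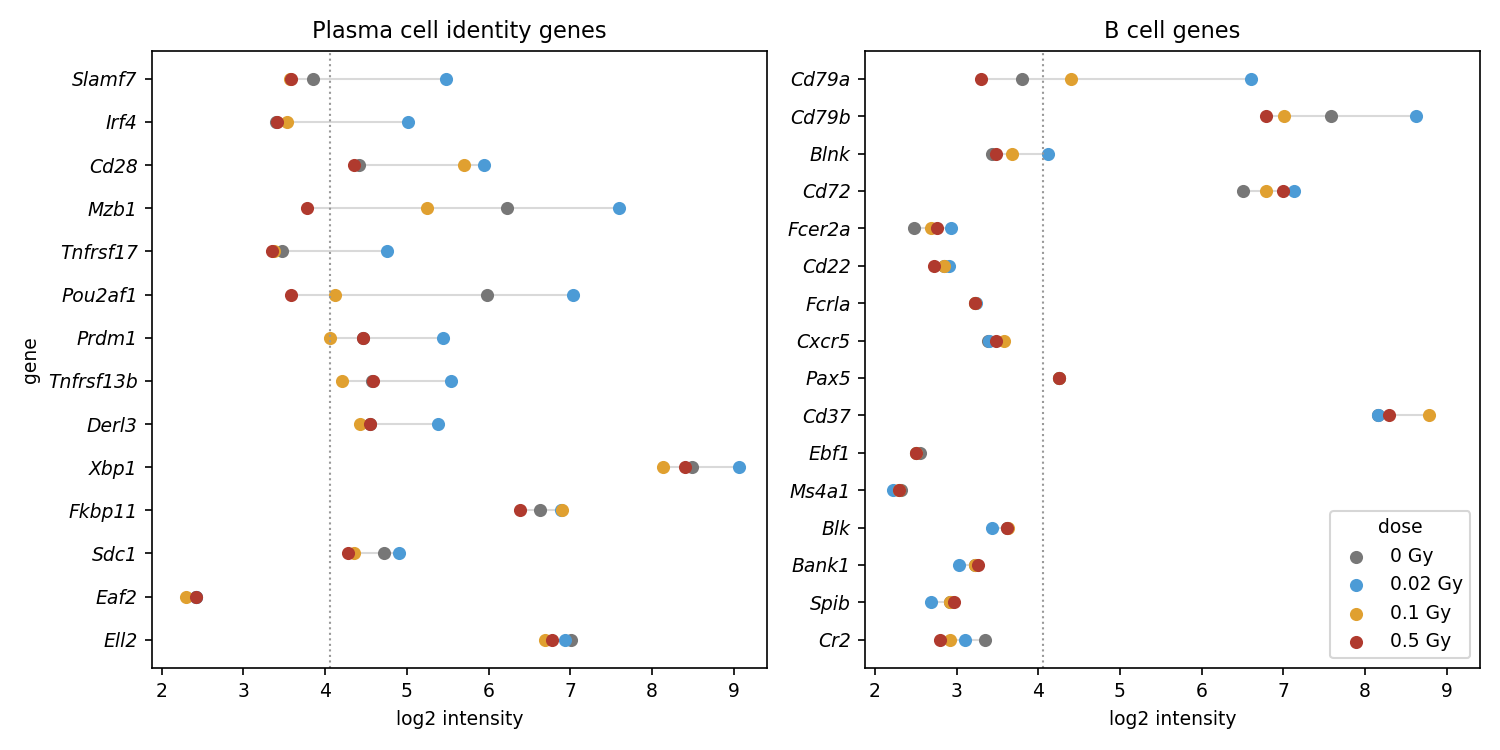
Log2 intensity (horizontal axis) of measured plasma cell identity genes (left) and B cell genes (right), with 1 point per dose and gene, rows ordered by the difference of 0.02 Gy from 0 Gy. The dotted line is the low level of 4.06, and points of equal value cover each other. Slamf7, Irf4 and Tnfrsf17 are above the line at 0.02 Gy alone, Mzb1 and Pou2af1 are lowest at 0.5 Gy, and most B cell genes lie left of the line on every array.

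Genes of B cells before the plasma cell stage were mostly low. Of 16 measured, 10 were low on all 4 arrays, among them Ms4a1, which encodes CD20, at 2.23 to 2.32, and the early B factor gene Ebf1 at 2.51 to 2.55. Pax5, the B lineage commitment factor, had the same value of 4.26 on every array. Summed linear intensity was 694, 1031, 812 and 673 at 0, 0.02, 0.1 and 0.5 Gy, mostly from Cd37, Cd79b and Cd72. The partners that carry the signal of membrane antibody differed more between arrays, Cd79a with 3.80, 6.61, 4.40 and 3.30, and Cd79b with 7.58, 8.62, 7.01 and 6.79. These were the 2 genes at least 2-fold higher at 0.02 Gy, and 0 genes of the list were at least 2-fold higher or lower at 0.1 or 0.5 Gy. Of all 11593 genes, 2.48%, 1.59% and 1.63% were higher and 1.55%, 2.68% and 3.01% lower at 0.02, 0.1 and 0.5 Gy. The counts of 0 are near these shares and are no result about the list.

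Of 10 measured pro-B and pre-B cell genes, 6 were low on all arrays, including the recombinase genes Rag1 and Rag2 and the template-free DNA polymerase gene Dntt. The other measured genes were Vpreb2, Vpreb3, Erg and Myb. Vpreb2, of the surrogate light chain family, had 6.61, 6.76, 7.34 and 7.41 in the order of dose, above the low level throughout. It was within 2-fold of 0 Gy at every dose. Vpreb3, of the same family, had 2.92, 5.49, 3.16 and 3.94, low except at 0.02 Gy. Vpreb3 was at least 2-fold higher than at 0 Gy at 0.02 Gy and at 0.5 Gy. At these doses 2.48% and 1.63% of all genes were so, and 1 gene of 10 is no result about the list.

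Genes that fold and secrete antibody were described by the same counts. Of 27 chaperone and secretion genes, 0 were at least 2-fold higher at any dose than at 0 Gy, and 0, 1 and 1 were lower at 0.02, 0.1 and 0.5 Gy, with medians of 0.13, 0.00 and 0.00. Of all genes, 1.55%, 2.68% and 3.01% were lower at these doses, so the counts are near the background. The lower gene was Txndc5, a protein disulphide isomerase abundant in plasma cells and named here after its values were seen, with 8.60, 8.66, 7.50 and 7.39. Ero1b, an oxidase of disulphide bond formation, had 5.60, 6.24, 5.68 and 5.60, and the stress-induced gene Herpud1 had 8.01, 8.56, 8.13 and 8.30.

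Receptors that bind antibody were mostly low too. Of 12 measured Fc receptor and transporter genes, 9 were low on all arrays, including Pigr, the carrier of polymeric IgA and IgM, and Fcgr2b, the inhibitory IgG receptor. Fcgrt, which encodes the receptor that protects IgG from breakdown and is named after its values were seen, had 6.94, 7.06, 6.17 and 5.23 at 0, 0.02, 0.1 and 0.5 Gy. Of 17 measured genes of class switching and antibody gene recombination, 4 were low on all arrays and 0 reached 2-fold at any dose. The nearest was Ung, which removes uracil from DNA during switching, with 4.83 at 0.02 Gy against 5.83 at 0 Gy. In each direction and at each dose 1.55% to 3.01% of all genes reached 2-fold, so 0 of 17 is near the background. Of 11 plasma cell niche and survival genes, 1 was at least 2-fold higher at 0.5 Gy, Tnfsf13, which encodes the ligand APRIL, with 4.86 against 3.48 at 0 Gy, where it was low. At that dose 1.63% of all genes were so, and 1 gene of 11 is no result about the list.

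Markers of other cells were summed in the same way. Summed linear intensity of 12 neutrophil and granulocyte genes was 398, 786, 1319 and 728 at 0, 0.02, 0.1 and 0.5 Gy, highest at 0.1 Gy. Its largest part was Prtn3, except at 0.1 Gy, where it was Mpo. For 14 monocyte, macrophage and dendritic genes the sum was 2602, 2237, 1148 and 2102, lowest at 0.1 Gy. Most of it came from Cd74, H2-Aa and H2-Ab1, and 8 of the 14, Csf1r and Adgre1 among them, were low on all arrays. For 8 erythroid genes the sum was 2820, 2135, 3347 and 3838, mostly from Car2 and Car1, with Alas2 low on all arrays. For 11 T and NK cell genes it was 601, 464, 778 and 1090, mostly from Nkg7, a granule protein gene with log2 values of 8.90, 8.38, 9.36 and 9.92, and 8 of the 11, Cd3e and Cd4 among them, were low on all arrays. For the 14 long-term stem cell genes the sum was 5949, 7297, 5626 and 5684, highest at 0.02 Gy. The part of these cells in the antibody values was not tested.

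Outside antibody genes, clone names and predicted genes, the 8 genes nearest to the mean profile of the constant regions and J chain were Pou2af1, Prg2, Slpi, Mir18, Mzb1, Jam2, Rarb and Neo1, with root mean square differences of 0.57 to 0.91 log2 units over the 4 arrays. Pou2af1 was the nearest, at 0.57. Prg2, an eosinophil granule protein, was next at 0.59, with 6.83, 8.58, 5.36 and 3.73 at 0, 0.02, 0.1 and 0.5 Gy. Slpi, a secreted protease inhibitor, had 9.49, 11.56, 6.48 and 7.03, and the adhesion molecule Jam2 had 6.62, 7.54, 4.30 and 4.94. The mean profile is weighted towards Ighg1, Ighg2b and Ighg2c, which have the widest ranges, and the 4 points share their arrays.

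The nearest genes split by the 0.02 Gy array. Pou2af1, Prg2, Slpi, Mzb1 and Jam2 were above 0 Gy there, by 0.92 to 2.07, as were the antibody genes other than Ighg3. Mir18, a microRNA gene, the retinoic acid receptor gene Rarb and the netrin receptor gene Neo1 were below it, at -0.48, -0.56 and -1.09. All 8 were lower at 0.1 and 0.5 Gy than at 0 Gy, which follows from their choice by nearness to a profile that is lower there. The choice used the 0.02 Gy array as well, where the mean profile was 2.22 against 1.54 at 0 Gy. Likeness at 0.02 Gy was therefore favoured by the choice too.

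**Figure D5:**
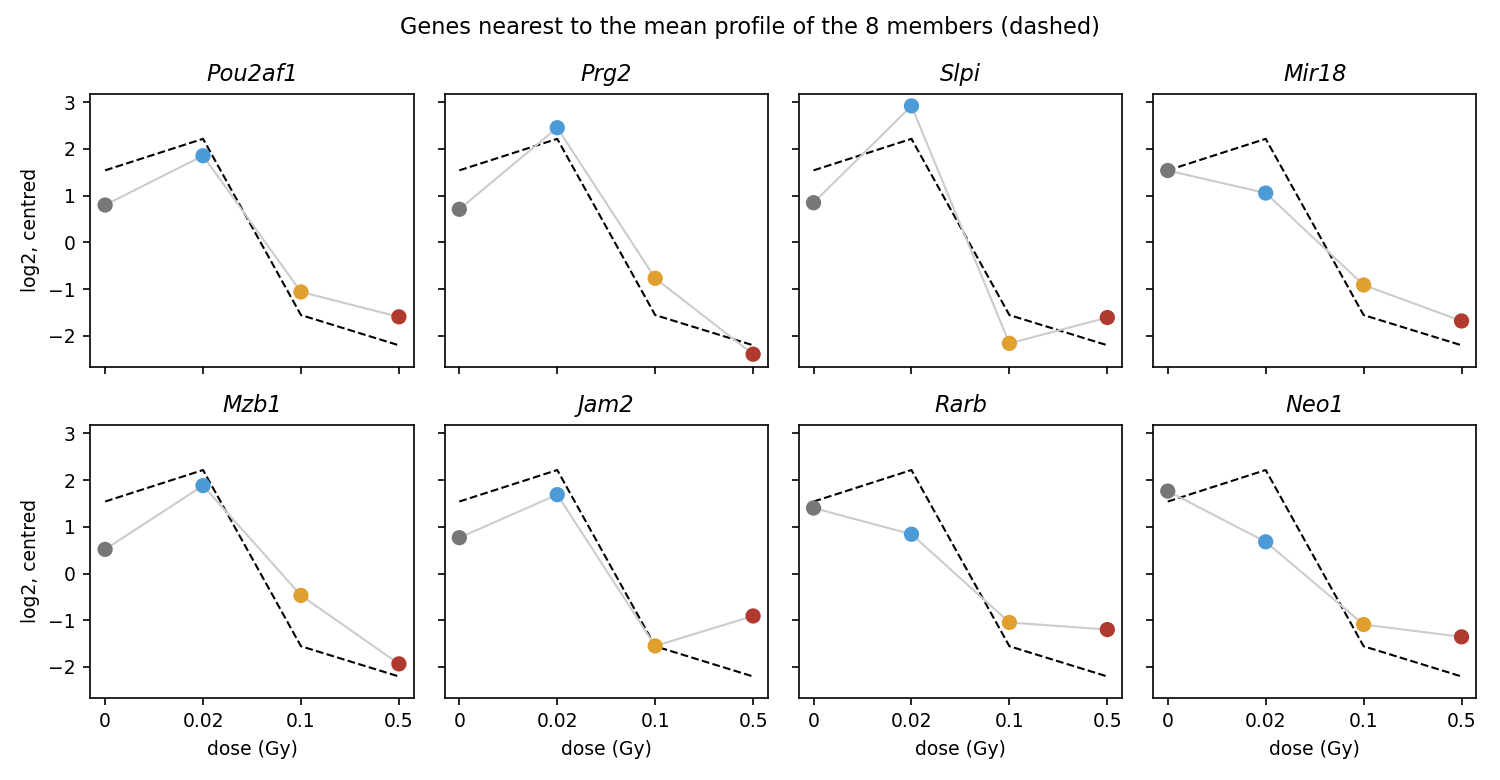
Log2 values centred on each gene's own mean (vertical axis) at each dose in Gy (horizontal axis, doses equally spaced) for the 8 genes nearest to the mean profile of the constant regions and J chain, which is dashed. Points are arrays. Pou2af1, Prg2, Slpi, Mzb1 and Jam2 peak at 0.02 Gy, and Mir18, Rarb and Neo1 are highest at 0 Gy.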

How the data were processed

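Total RNA of sorted long-term haematopoietic stem cells was labelled with an Affymetrix whole-transcript kit, per the labels' protocols. The deposited table holds a log2 intensity for each probe set, and each probe set stands for 1 Entrez gene. The base of 2 was inferred from their range of 1.22 to 13.0. Partek is named, without a role, in the submitters' processing notes, and how background was corrected, how arrays were normalized and which build was used is not given here by any label or header. Arrays have no read depth, so their number, 1 per dose, limits the precision, and no spread within a dose is known.

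Values were used as deposited. Of kept genes, those with a mean of at least 4.06, 46.3% had equal values on 2 or more arrays. Each dose was compared with 0 Gy as a log2 difference, with counts at 2-fold. No test was run. The members and lists were chosen with earlier results of these data known. Named genes are the 8 members, the 8 nearest profiles, defining plasma and B cell markers, and up to 4 genes per list by difference at 0.02 Gy; the text gives a part. List symbols were brought up to date through RefSeq synonyms. Normalization alternatives used limma 3.58.1 in R 4.3.3, and the rest Python 3.11.15. Profile ranking and counts were tested on simulated data. Promoter sequence is RefSeq's, GRCm38.p6.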

Additional observations from a re-analysis of the deposited data

How the results depend on the processing

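Each of the 24 differences of an antibody gene from 0 Gy was recomputed. None changed sign past 2-fold under quantile normalization, cyclic loess, median centring or a control made of the 3 other arrays' mean. The largest shift was 0.19 under quantile normalization, 0.15 under cyclic loess and 0.05 under median centring. In that order, 1, 1 and 0 calls at 2-fold changed, all at 0.02 Gy. The deposited arrays were already alike, with medians of 4.01 to 4.07, so small shifts were likely beforehand. They do not show how the submitters' own processing affected the values. The 3-array control gave a largest shift of 4.96 and changed 6 calls. Under it 18 of the 24 differences moved by more than the median absolute difference of all kept genes. The number higher at 0.02 Gy was 1 under quantile normalization, 3 under cyclic loess, where Ighg2c was at 1.01, and, as the thresholds require, 4 at 1.5-fold and 0 at 3-fold, against 2 as reported. With the 3 other arrays' mean as control, that number was 6 and the median difference 1.77. At 0.1 Gy that control gave 1 higher gene, Ighm, and a median of -0.76, because it averages high and low arrays. Without the filter on low values, which adds low genes, 1.69% of genes were lower at 0.1 Gy and 1.87% at 0.5 Gy. Raising low values to 4.06, chosen after seeing the data, left the medians against 0 Gy and their counts as they were. Of the 8 nearest genes, 4 were shared when ranked by Pearson correlation, and the cause was not tested. No paired analysis was possible because each dose had 1 array.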
